A study of Mus musculus with 4 samples.

Results

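The MHC class I pathway was followed through 10 genes in macrophages grown with M-CSF from mouse bone marrow. The genes were chosen by name, 10 of the 24235 gene symbols in the tables, and all 10 were present. They were the heavy chain genes H2-K1, H2-D1, H2-Q4, H2-Q6, H2-T23 and H2-T24, the light chain gene B2m, and the peptide transport and loading genes Tap1, Tap2 and Tapbp. Messenger RNA was sequenced in 4 libraries. They were labelled Sema6D-/- with LPS, Sema6D-/- without LPS, wild type (WT) with LPS and WT without LPS, 1 library each, all from C57BL/6 mice aged 7 weeks. Stimulated cells received 100 ng/ml of LPS (lipopolysaccharide, a bacterial outer membrane component that macrophages sense through TLR4) for 4 h. The labels do not give the number of mice, whether marrow was pooled, or which stretch of Sema6d was deleted.

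Class I molecules display short peptides from inside the cell to CD8 T cells and to receptors of natural killer cells. A membrane-bound heavy chain pairs with beta-2 microglobulin, the product of B2m. Tap1 and Tap2 form the pump that carries peptides into the endoplasmic reticulum, and tapasin, the product of Tapbp, holds empty class I molecules at that pump while peptides are tried out. In macrophages, LPS triggers interferon beta, and interferons raise class I genes through factors such as IRF1 and the transactivator NLRC5.

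With 1 library per group, no difference below has a replicate check or a test. Sema6d itself was low and not lower in the libraries labelled Sema6D-/-. It measured 0.592 FPKM with LPS and 0.563 without in these, against 0.219 and 0.304 in WT, all below 1 FPKM. Most of it lay on a different transcript in each library, at about 59.4 and 63.2 fragments in these and 14.1 and 44.4 in WT. The direction of these low values is opposite to the label, so every genotype direction below is between libraries as labelled. Sex differed with genotype as well. Xist, from the inactive X chromosome, was at most 0.0333 FPKM in the libraries labelled Sema6D-/- and at least 21.4 FPKM in WT. The Y-linked gene Ddx3y was at least 13.2 FPKM in the libraries labelled Sema6D-/- and at most 0.00729 FPKM in WT. Ifnb1, which encodes interferon beta, matched the LPS labels: it had 37.3 FPKM with LPS and 0.394 without in the libraries labelled Sema6D-/-, and 21.2 and 0.229 in WT. The 8 macrophage markers summed to 17408.5 to 24744 FPKM per library, of which Lyz2 alone gave 14435 to 19821. They did not all move the same way with genotype. Itgam had 265 FPKM with LPS and 225 without in the libraries labelled Sema6D-/-, against 538 and 404 in WT. Adgre1 and Fcgr1 were lower there as well. Mertk had 61.3 and 23.5 FPKM against 14.9 and 11.7 in WT, and Csf1r, Cd68, Lyz2 and Cd14 were higher as well. Markers of T and NK cells (at most 2.93 FPKM summed), stromal cells (at most 0.189) and erythroid cells (at most 0.113) were near 0. FPKM counts sequenced fragments for each kilobase of a transcript after scaling for depth, and 9682 to 10057 genes per library reached 1 FPKM.

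The 10 genes spanned a wide range of levels. B2m ranked from 3rd place to 6th place among all genes in every library. It measured 11695 FPKM with LPS and 5742 without in the libraries labelled Sema6D-/-, and 9795 and 6001 in WT. H2-D1 and H2-K1, the classical heavy chains that present peptides to CD8 T cells, lay between 696 and 1673 FPKM. Tapbp lay between 175 and 822 FPKM, and H2-T23, H2-T24, Tap1 and Tap2 between 21.8 and 329. H2-Q4 lay between 18.6 and 108 FPKM, and H2-Q6 was lowest, at 0.0608 to 13.5. In 7 of the 10 genes the libraries stood in 1 order, highest in that labelled Sema6D-/- with LPS, then WT with LPS, then that labelled Sema6D-/- without LPS, and lowest in WT without LPS. H2-T24 broke the order because both libraries labelled Sema6D-/- lay above both WT libraries. B2m and H2-Q6 broke it because the library labelled Sema6D-/- without LPS was the lowest of the 4.

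**Figure D1:**
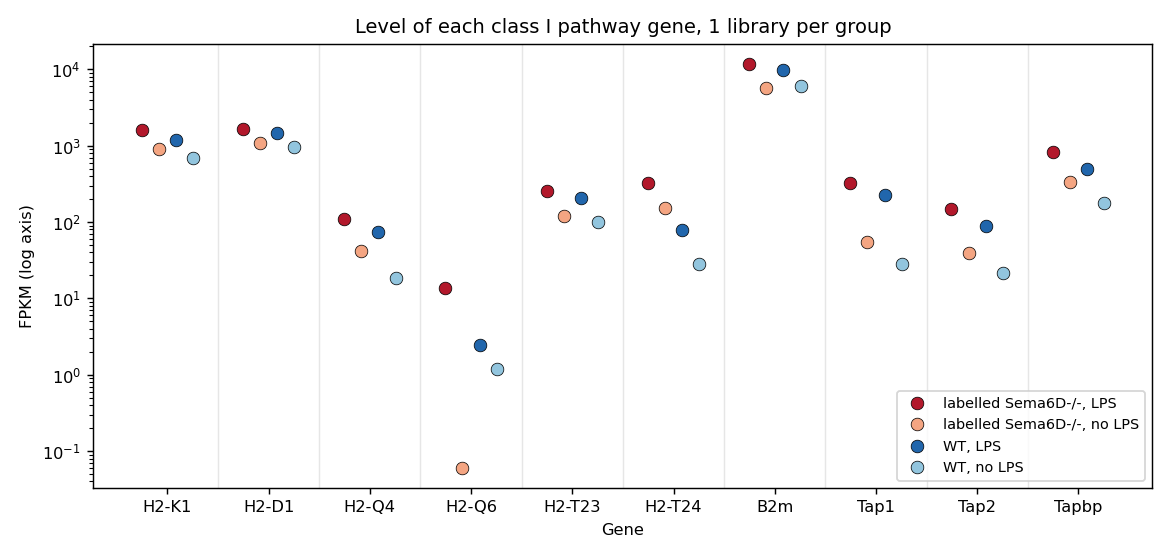
Deposited FPKM (log axis) of the 10 class I pathway genes in the 4 libraries, 1 point per library. B2m lies between 5742 and 11695 FPKM, far above the rest, and H2-Q6 in the library labelled Sema6D-/- without LPS is the lowest point at 0.0608 FPKM.

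Class I heavy chain genes are close relatives, and sequencing fragments from a stretch that several of them share can be split between them by the counting. The likeness was measured as the share of a transcript's 50-base words that also occur in a transcript of another gene in GENCODE vM21. H2-Q6 shared most, 36.8% of its words, chiefly with H2-Q7 among the genes found there. Neither H2-Q8 nor H2-Q9 was matched to a transcript, and no words shared with them were counted. The share of H2-Q6 can thus be an underestimate. H2-T23 shared 28.8%, H2-Q4 24.2%, H2-D1 14.3% and H2-K1 8.79%. H2-T24 shared 3.24% of its 50-base words and 0 of its 2083 100-base words. B2m shared 0 of its words, and Tap1, Tap2 and Tapbp at most 2.24%. H2-T24, B2m, Tap1, Tap2 and Tapbp thus had little or no sequence in common with other genes at this word length, unlike H2-Q6, H2-T23 and H2-Q4. The stretches below show what such sharing looks like within the coding sequence on chromosome 17. The capitals mark the longest run of bases that is identical in each pair, and the 15 bases on either side are in lower case. The run is 91 bases long for H2-K1 and H2-D1 and 79 bases long for H2-Q6 and H2-Q7.
H2-K1: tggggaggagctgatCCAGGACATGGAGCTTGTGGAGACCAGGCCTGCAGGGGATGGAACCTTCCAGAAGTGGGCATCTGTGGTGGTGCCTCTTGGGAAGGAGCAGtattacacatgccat
H2-D1: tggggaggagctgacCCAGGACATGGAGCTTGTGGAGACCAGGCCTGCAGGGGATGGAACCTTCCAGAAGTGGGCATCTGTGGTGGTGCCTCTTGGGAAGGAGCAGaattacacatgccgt
H2-Q6: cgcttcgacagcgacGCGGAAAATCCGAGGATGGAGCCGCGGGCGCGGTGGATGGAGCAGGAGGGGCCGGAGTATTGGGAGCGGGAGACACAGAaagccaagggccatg
H2-Q7: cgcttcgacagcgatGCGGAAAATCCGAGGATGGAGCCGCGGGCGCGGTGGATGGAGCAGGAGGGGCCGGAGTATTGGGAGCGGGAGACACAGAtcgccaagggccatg

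**Figure D2:**
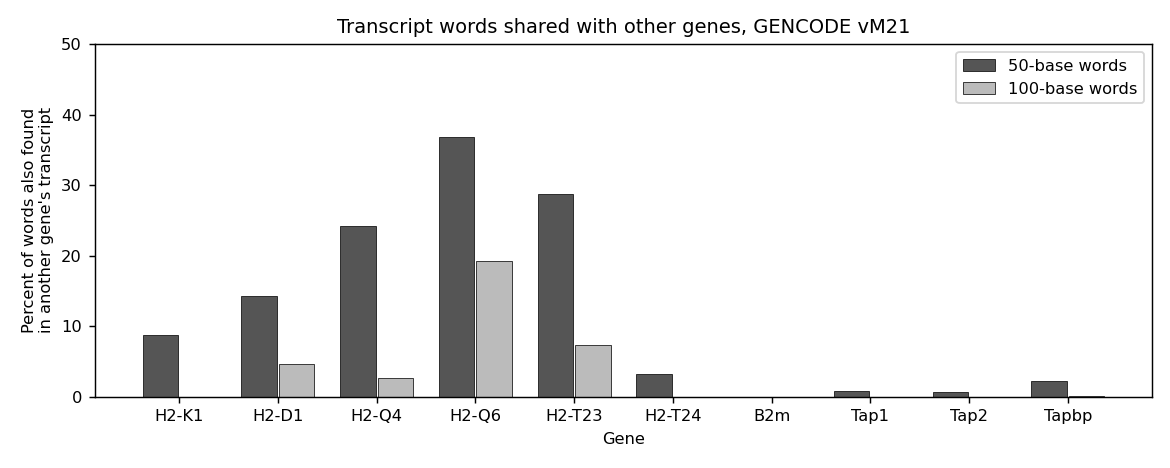
Percent of each gene's 50-base and 100-base transcript words (bars, axis from 0) that also occur in a transcript of another gene. H2-Q6 has the tallest bars at 36.8% and 19.3%, while H2-T24 has 3.24% and 0%, and B2m has 0% at both lengths.

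The classical heavy chain genes were higher with LPS in both genotypes on the deposited scale, by less than 2-fold. H2-K1 measured 1608 FPKM with LPS and 919 without in the libraries labelled Sema6D-/-, and 1176 and 696 in WT. H2-D1 measured 1673 and 1077 FPKM in the libraries labelled Sema6D-/-, and 1476 and 971 in WT. Ratios are given as log2((FPKM + 1)/(FPKM + 1)), and a gene was called at 2-fold, a log2 ratio of 1. H2-K1 had log2 LPS ratios of 0.81 in the libraries labelled Sema6D-/- and 0.76 in WT, and H2-D1 had 0.63 and 0.60, so neither was called. After the libraries were rescaled to a common total of all genes or of protein-coding genes, the ratio of H2-D1 in the libraries labelled Sema6D-/- became -0.12 and -0.14. These rescalings moved all LPS ratios by a median of -0.72 and -0.74 in the libraries labelled Sema6D-/- and -0.51 and -0.53 in WT.

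Among the non-classical heavy chain genes, H2-T23 encodes Qa-1, which presents peptides to receptors of natural killer cells. It measured 255 FPKM with LPS and 118 without in the libraries labelled Sema6D-/-, and 208 and 101 in WT. Its log2 LPS ratios were 1.10 and 1.04, just past the size rule. H2-Q4 had 108 and 41.8 FPKM in the libraries labelled Sema6D-/-, and 74.3 and 18.6 in WT, for log2 LPS ratios of 1.35 and 1.94. H2-T24 had 328 and 152 FPKM in the libraries labelled Sema6D-/-, and 78.3 and 28.2 in WT, for ratios of 1.11 and 1.44. H2-T23, H2-Q4 and H2-T24 therefore all passed 2-fold in each genotype on the deposited scale, whereas the classical genes did not. Ratios were also centred on the median of the 6110 genes that no library showed below 5 FPKM. H2-T23 was then under 2-fold in both genotypes, at 0.95 in the libraries labelled Sema6D-/- and 0.93 in WT. H2-T24 was then at 0.95 in the libraries labelled Sema6D-/-. Under the common totals H2-Q4 in WT was the only one of them still past 2-fold.

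H2-Q6 belongs to the group of genes that encode Qa-2, together with H2-Q7, H2-Q8 and H2-Q9. It measured 13.5 FPKM with LPS and 0.0608 without in the libraries labelled Sema6D-/-, and 2.44 and 1.19 in WT. By the steps of the low values these levels stood for 173 and 1 fragments in the libraries labelled Sema6D-/- and for 38 and 28 in WT. Taken over these whole fragments and scaled for depth, the level with LPS was 234.5 times that without in the libraries labelled Sema6D-/-, with an exact 95% counting interval of 41.5 to 9315, and 2.08 times in WT, with 1.24 to 3.52. These intervals cover counting error only and take the assignment of fragments as given. Without LPS, H2-Q8 had 4.53 FPKM in the library labelled Sema6D-/- and 0.0148 in WT, and H2-Q9 was listed at 0 in the library labelled Sema6D-/-. Gapdh, Ppia and Eno1, which every cell uses, were below 1 FPKM in all 4 libraries, so a low value in these tables need not mean a low transcript. Summed over H2-Q6 to H2-Q9, the level was 61.2 FPKM with LPS and 11.2 without in the libraries labelled Sema6D-/-, and 25.2 and 3.71 in WT. The log2 LPS ratios of the sum were 2.35 and 2.48, close together where those of H2-Q6 alone were 3.77 and 0.65. This sum, and the naming of H2-Q8 and H2-Q9, were chosen after their values were seen.

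The sum over all 6 heavy chain genes depends less on how shared fragments were split among them. It still depends in part, since their transcripts differ in length and H2-Q6 shares sequence with H2-Q7, outside the sum. The sum was 3986 FPKM with LPS and 2308 without in the libraries labelled Sema6D-/-, and 3015 and 1816 in WT. Its log2 LPS ratios were 0.79 and 0.73, both under 2-fold. Under the common totals the ratio in the libraries labelled Sema6D-/- was 0.032 and 0.013. Over all 31 class I heavy chain genes of the H2 region in the tables the ratios were 0.81 and 0.76. H2-K1 and H2-D1 together made up 82.3% of the 6-gene sum with LPS and 86.5% without in the libraries labelled Sema6D-/-, and 87.9% and 91.8% in WT. H2-D1 alone made up 42.0% and 46.7% in the libraries labelled Sema6D-/-, and 48.9% and 53.5% in WT, whereas H2-K1 stayed between 38.3% and 40.4% in all 4. The non-classical genes thus held a larger share with LPS than without in each genotype.

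**Figure D3:**
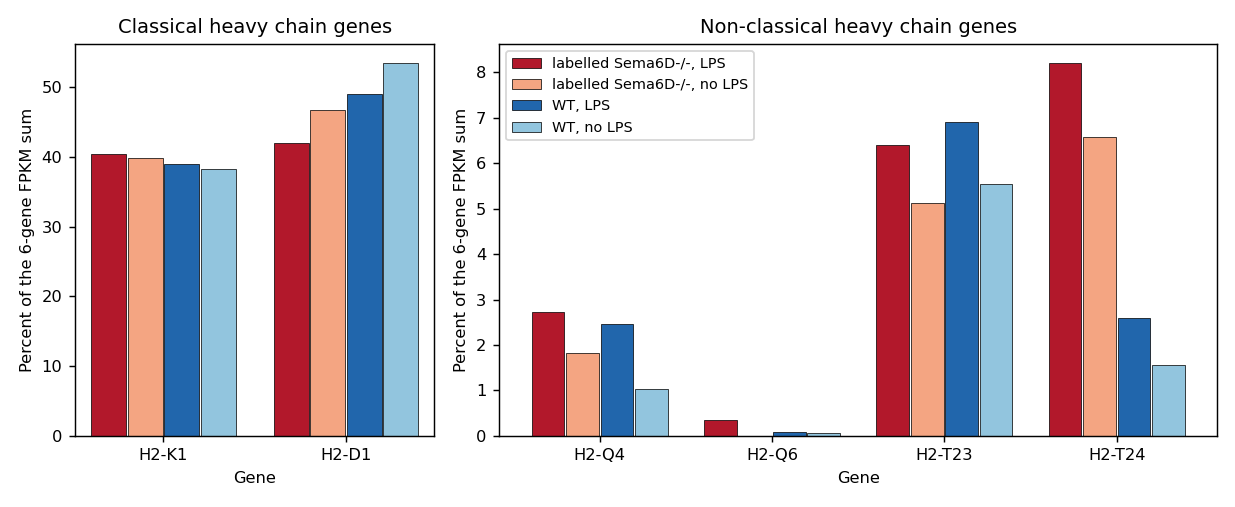
Percent of the summed FPKM of the 6 heavy chain genes that each gene made up in the 4 libraries (bars, axes from 0, with different ranges for classical and non-classical genes). H2-T24 makes up 8.22% and 6.57% in the libraries labelled Sema6D-/- and 2.60% and 1.55% in WT, while H2-K1 keeps to 38.3% to 40.4%.

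The light chain gene B2m had log2 LPS ratios of 1.03 in the libraries labelled Sema6D-/- and 0.71 in WT. It exceeded the summed heavy chains 2.93-fold with LPS and 2.49-fold without in the libraries labelled Sema6D-/-, and 3.25-fold and 3.31-fold in WT. The ratio was lower in both libraries labelled Sema6D-/- than in WT.

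The peptide pump genes had the largest LPS ratios among the genes with little shared sequence. Tap1 measured 329 FPKM with LPS and 54.0 without in the libraries labelled Sema6D-/-, and 225 and 28.3 in WT. Its log2 LPS ratios were 2.59 and 2.95. Tap2, its partner, measured 149 and 38.8 FPKM in the libraries labelled Sema6D-/-, and 89.3 and 21.8 in WT, for ratios of 1.91 and 1.99. Tap1 was 2.21 times the level of Tap2 with LPS and 1.39 times without in the libraries labelled Sema6D-/-, and 2.52 and 1.30 times in WT. The partners were thus further apart with LPS in each genotype. Tap1 and Tap2 were past 2-fold in both genotypes under each of the 4 other scalings. Tapbp measured 822 and 338 FPKM in the libraries labelled Sema6D-/-, and 500.1 and 175 in WT, for ratios of 1.28 and 1.51. Its level was spread over 2 transcripts, of which the leading one held 74.5% with LPS and 64.5% without in the libraries labelled Sema6D-/-, and 71.8% and 78.4% in WT.

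Of the 10 genes, 8 were called higher with LPS in the libraries labelled Sema6D-/-, where 14.0% of all genes compared were, and 6 in WT, where 10.7% were. None was called lower in either, against 8.81% and 4.85% of all genes. H2-Q6 passed the filter of 1 FPKM in the libraries labelled Sema6D-/- only through the library with LPS. Its call there carries no weight as a count, on the deposited scale or under the rescaling below. The median log2 LPS ratio of the 10 was 1.19 in the libraries labelled Sema6D-/- and 1.24 in WT, against 0.01 and -0.0011 over all genes. With the libraries rescaled to a common total of all genes the calls became 3 and 3 and the medians 0.44 and 0.72. The shares of all genes called, here and below, are for the deposited scale only. Counts under the rescaling therefore have no such share beside them. Tap1, Tap2 and H2-Q6 were then the called genes in the libraries labelled Sema6D-/-, and Tap1, Tap2 and H2-Q4 in WT.

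**Figure D4:**
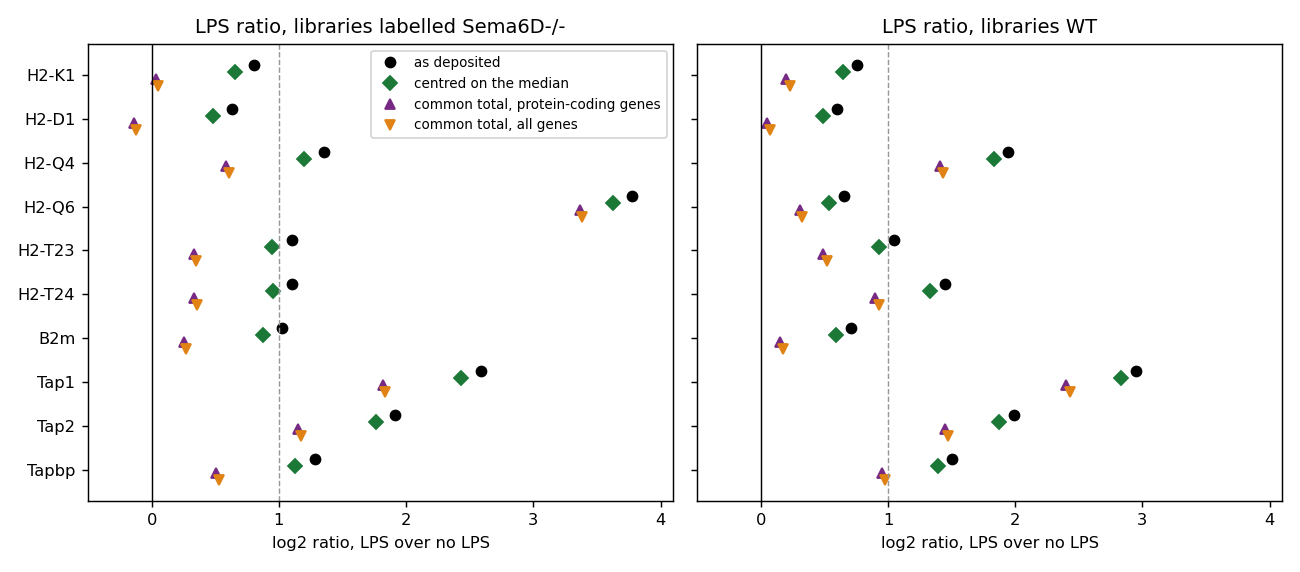
Log2 LPS ratio of each gene in the libraries labelled Sema6D-/- (left) and WT (right), with 2-fold as the dashed line. Ratios are as deposited, centred on the median of the 6110 genes that no library showed below 5 FPKM, and after rescaling to a common total. Tap1 and Tap2 stay past the line under each, whereas H2-D1 in the libraries labelled Sema6D-/- moves to -0.12 and -0.14 under the common totals.

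Promoter sequence was examined because most of these genes were higher together with LPS. RefSeq windows of GRCm38.p6, from 250 bases before to 50 bases after a transcription start, were available for 8 of the 10 genes, all but H2-T24 and Tap2. A form of the site bound by NF-kB, written as GGG, 2 free bases, TT, 1 free base and CC, was searched on both strands. It occurred in the windows of H2-K1, H2-D1, H2-Q4, H2-Q6 and B2m, 5 of 8, and in 4.79% of all 32851 windows. Here and for the forms below, a gene counted if any of its windows matched, while the share is of single windows. The core of an interferon response element, GAAA, 2 free bases and GAAA, occurred in those of B2m and H2-T23, 2 of 8, and in 3.44% of all windows. A related form, GAA, 2 free bases and GAAAC, was searched after the windows had been read and occurred in those of H2-K1, H2-D1, H2-Q4 and H2-Q6, 4 of 8, and in 1.73% of all windows. The heavy chain genes are of common descent, so their promoters are not independent instances. The stretches below are 100 bases of each promoter, read in the direction of the gene, with the matches in capitals. H2-Q4 held 2 overlapping matches of the NF-kB form. Matches on the opposite strand appear as their reverse complement, as in H2-T23.
H2-K1: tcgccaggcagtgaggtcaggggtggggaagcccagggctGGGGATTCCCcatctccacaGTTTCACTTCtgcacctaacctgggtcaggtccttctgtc
H2-D1: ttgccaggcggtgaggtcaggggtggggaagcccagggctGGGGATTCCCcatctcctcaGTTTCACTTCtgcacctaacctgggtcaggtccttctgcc
H2-Q4: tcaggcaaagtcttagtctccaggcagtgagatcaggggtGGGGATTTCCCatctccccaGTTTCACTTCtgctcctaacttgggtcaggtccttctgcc
H2-Q6: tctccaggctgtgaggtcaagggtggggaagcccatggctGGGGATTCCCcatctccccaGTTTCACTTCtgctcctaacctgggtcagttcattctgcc
B2m: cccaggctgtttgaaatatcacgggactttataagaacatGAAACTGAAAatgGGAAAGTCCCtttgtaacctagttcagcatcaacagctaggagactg
H2-T23: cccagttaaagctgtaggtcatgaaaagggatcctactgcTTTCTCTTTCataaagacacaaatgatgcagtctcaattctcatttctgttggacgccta

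In GRCm38.p6 these stretches lie at chr17:34000399-34000498 on the minus strand for H2-K1 and at chr17:35262883-35262982 on the plus strand for H2-D1. Those of H2-Q4 and H2-Q6 lie at chr17:35379403-35379502 and chr17:35424637-35424736 on the plus strand. That of B2m lies at chr2:122147508-122147607 on the plus strand, and that of H2-T23 at chr17:36032766-36032865 on the minus strand. H2-K1, H2-D1 and H2-Q6 carried the same letters at both matches, GGGGATTCCC and, on the opposite strand, GAAGTGAAAC. Tap1 and Tapbp held no match of the 3 forms in their windows. A match is a string of letters only, and binding was not measured.

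Before stimulation, the library labelled Sema6D-/- exceeded WT for 8 of the 10 genes, where 5774 of all 10322 genes compared were higher. H2-T24 stood far from the rest. Its 152 FPKM there, against 28.2 FPKM in WT, is a log2 ratio of 2.39, the 38th highest of 10322 genes compared. H2-Q4 was the other gene called higher, at 41.8 against 18.6 FPKM and a ratio of 1.13. Tapbp (0.94), Tap1 (0.91) and Tap2 (0.81) lay just under 2-fold. H2-K1 (0.40), H2-T23 (0.23) and H2-D1 (0.15) were closer to WT, and B2m was at -0.06. H2-Q6 alone was called lower, at -1.05 on the log2 scale, on 1 fragment in the library labelled Sema6D-/- and 28 in WT. It passed the filter of 1 FPKM there only through WT, the library in which it was high, so this call carries no weight as a count. Its linear ratio over whole fragments was 0.0491, with an exact 95% counting interval of 0.0012 to 0.297, whereas the sum over H2-Q6 to H2-Q9 had a log2 ratio of 1.37. So 2 of 10 genes were called higher and 1 lower, where 2.51% and 2.19% of all genes were. The median ratio was 0.60, against 0.04 over all genes.

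After LPS the library labelled Sema6D-/- exceeded WT for all 10 genes on the deposited scale, where 5560 of all 10078 genes compared were higher. However, H2-D1 turned to -0.05 and -0.07 under the common totals. B2m fell to 0.026 and 0.0057 there, and H2-T23 to 0.061 and 0.041. H2-T24, at 328 against 78.3 FPKM, had a log2 ratio of 2.05, the 56th highest of 10078 genes compared. H2-Q6, at 13.5 against 2.44 FPKM, had 2.08, and a linear ratio over whole fragments of 5.53 with an exact 95% counting interval of 3.87 to 8.07. Those 2 were called, where 3.09% of all genes were called higher and 3.18% lower. Tap2 (0.73), Tapbp (0.71), Tap1 (0.55), H2-Q4 (0.54) and H2-K1 (0.45) followed, and H2-T23 (0.29), B2m (0.26) and H2-D1 (0.18) were smallest. The median was 0.54, against 0.04 over all genes. The summed heavy chains had log2 ratios of 0.40 with LPS and 0.35 without. These values are for the deposited scale, and the common totals moved all ratios with LPS by a median of -0.22 and -0.24.

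H2-T24 was thus 4.18 times as high in the library labelled Sema6D-/- as in WT with LPS, and 5.38 times without LPS. Its neighbour in the T region, H2-T23, was 1.22 and 1.18 times as high. H2-T24 exceeded H2-T23 in both libraries labelled Sema6D-/-, at 1.28 times its level with LPS and 1.28 times without, and lay below it in WT, at 0.376 and 0.280 times. Estimated fragments behind H2-T24 were 10720 and 6728 in the libraries labelled Sema6D-/- and 3112 and 1716 in WT. H2-T10 and H2-T22, also of the T region and much alike, showed another shift. H2-T22 was 0.948 and 0.841 times the level of H2-T10 in the libraries labelled Sema6D-/-, with and without LPS, and 4.53 and 7.56 times in WT. These genes share 30.3% of the words of H2-T10 and 37.9% of those of H2-T22. Their sum was 36.9 FPKM with LPS and 13.1 without in the libraries labelled Sema6D-/-, and 49.3 and 11.5 in WT. H2-T10 was named after its values were seen.

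**Figure D5:**
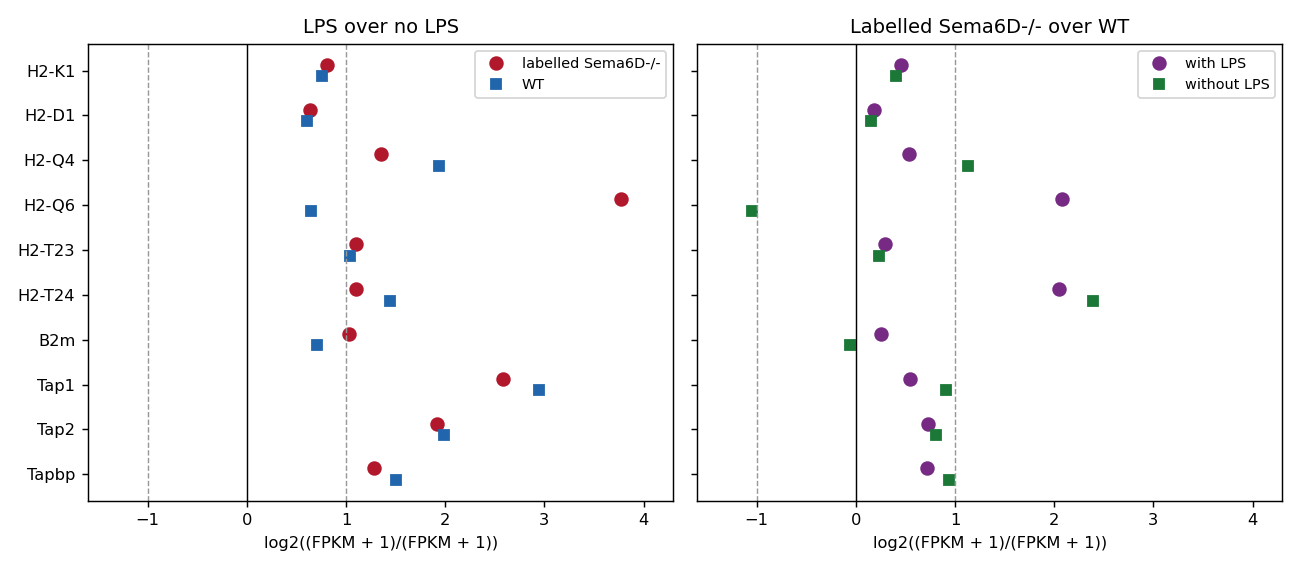
Log2 ratios of the 10 genes, LPS over no LPS in each genotype (left) and libraries labelled Sema6D-/- over WT with and without LPS (right), 1 library per group; dashed lines are 2-fold. H2-T24 stands at 2.05 and 2.39 in the genotype panel, and H2-Q6 lies on opposite sides of 0 there, at 2.08 and -1.05; H2-D1 with LPS, at 0.18, turns to -0.05 and -0.07 under the common totals.

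Other features moved with genotype as well, and their part in these ratios was not tested. Of 7 neutrophil markers 6 were at 1 FPKM or more in some library, and the list summed to 316 FPKM with LPS and 207 without in the libraries labelled Sema6D-/-, against 1118.5 and 733 in WT. Ly6g was at most 0.450 FPKM in all 4. Of 4 B cell markers, Cd79b alone reached 1 FPKM, and the list summed to 0.707 and 3.15 FPKM against 7.21 and 12.5 in WT. Cd79a was listed at 0 in both libraries labelled Sema6D-/-. Of 5 dendritic cell markers 2 reached 1 FPKM, and the list summed to 7.97 and 2.60 FPKM against 4.20 and 1.48 in WT. Flt3 and Zbtb46 were at most 0.313 FPKM. The class II genes H2-Aa, H2-Ab1 and H2-Eb1, on the same chromosome, summed to 308 and 173 FPKM in the libraries labelled Sema6D-/- against 76.9 and 38.7 in WT. In bulk libraries, fewer cells of a type and less RNA per cell cannot be told apart, and genotype cannot be told apart from sex here.

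Between genotypes the log2 LPS ratios of the 10 genes other than H2-Q6 differed most for H2-Q4. The difference of the log2 ratios, labelled Sema6D-/- minus WT, was 0.06 for H2-T23, 0.05 for H2-K1 and 0.03 for H2-D1, and these 3 turned to between -0.16 and -0.19 under the common totals. It was -0.07 for Tap2, -0.23 for Tapbp, -0.34 for H2-T24, -0.36 for Tap1 and -0.59 for H2-Q4, and 0.32 for B2m. H2-Q6 alone was called, at 3.12, and the sum over H2-Q6 to H2-Q9 gave -0.13. So 1 of 10 was called higher and 0 lower, where 1.83% and 1.25% of all genes were. That call rests on 1 fragment of H2-Q6 in the library labelled Sema6D-/- without LPS and carries no weight as a count. The median was -0.02, against -0.0060 over all genes. Tap1, Tap2, Tapbp, H2-Q4 and H2-T24 had smaller log2 responses in the libraries labelled Sema6D-/-, from a higher level without LPS. No difference of responses could be tested.

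Other heavy chain and class I-like genes were described from a list of 23, of which 21 were in the tables. Of those measured, LPS calls were made for 8 of 13 in the libraries labelled Sema6D-/- and 7 of 12 in WT, all higher, beside 14.0% and 10.7% of all genes. H2-Q9 (1.15 FPKM with LPS and 0 without) passed the filter in the libraries labelled Sema6D-/- only through the library with LPS. So did H2-Q8 (7.39 and 0.0148) and H2-M2 (2.31 and 0.147) in WT. Those calls carry no weight as counts, and H2-M2 was named for this reason only. Under the common total of all genes 2 of 12 were called higher and 2 lower in the libraries labelled Sema6D-/-, and 7 of 12 higher in WT. No share of all genes at that scaling is given. H2-T9 and H2-L were not analysed here. Relative to WT, 8 of 13 were higher and 5 lower in the library labelled Sema6D-/- with LPS (median log2 ratio 0.49), and 7 and 5 of 12 without LPS (0.63). Over all genes compared, 5560 of 10078 were higher with LPS and 5774 of 10322 without, a similar share. Of the 5 at the highest level, 4 were lower in both libraries labelled Sema6D-/- and H2-Q7 was higher. Hfe, which regulates iron uptake, had 20.4 FPKM with LPS and 29.9 without in the libraries labelled Sema6D-/-, against 34.0 and 41.8 in WT. Fcgrt, the neonatal Fc receptor that recycles antibody, had 12.7 and 14.99 FPKM against 29.99 and 29.7 in WT, log2 ratios of -1.18 with LPS and -0.94 without. H2-M3, which presents formylated bacterial peptides, had 26.3 and 14.7 FPKM against 35.1 and 18.2. H2-T22 had 17.9 and 6.00 FPKM against 40.4 and 10.2, although its sum with H2-T10 was slightly higher than in WT without LPS. H2-Q7 had 35.7 and 6.61 against 14.9 and 2.42. At 2-fold, 3 of 13 were called higher and 2 lower with LPS, beside 3.09% and 3.18% of all genes, and 5 and 0 of 12 without, beside 2.51% and 2.19%. Without LPS, H2-Q8 and H2-M2 passed the filter only through the library labelled Sema6D-/-, in which they were high. Their calls there carry no weight as counts.

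For chaperones and peptidases of class I loading, LPS calls were not far from the share of all genes, given how few genes were listed. Of 11 genes listed, 2 were called higher with LPS in each genotype and none lower, of 11 measured in the libraries labelled Sema6D-/- and 10 in WT, where 14.0% and 10.7% of all genes were called higher. The called genes were Tapbpl, a tapasin-related peptide editor, and Lnpep, an endosomal aminopeptidase used in cross-presentation. Tapbpl had 40.8 FPKM with LPS and 15.7 without in the libraries labelled Sema6D-/-, and 23.2 and 6.56 in WT, for log2 LPS ratios of 1.33 and 1.68. Lnpep had ratios of 1.65 and 1.30. Under the common total of all genes Tapbpl was at 0.60 in the libraries labelled Sema6D-/- and 1.20 in WT, and Lnpep at 0.91 and 0.78, which left the call of Tapbpl in WT alone. Calreticulin (Calr), the chaperone of newly made heavy chains, had 703 and 545 FPKM in the libraries labelled Sema6D-/-, and 619 and 510 in WT. Its ratios were 0.37 and 0.28, those of the disulphide isomerase Pdia3 were 0.29 and 0.23, those of the chaperone Canx were 0.29 and 0.20, and those of the translocon gene Sec61a1 were 0.27 and 0.18. Erap1, which trims peptides in the endoplasmic reticulum, had ratios of 0.58 and 0.46. These ratios of Calr, Pdia3, Canx, Sec61a1 and Erap1 are smaller than the shift that the common totals bring, of -0.51 to -0.74. Between genotypes, Tapbpl alone of the list was called, at 1.14 without LPS, 1 of 11 beside 2.51% of all genes called higher. With LPS 0 of 11 were called, beside 3.09% of all genes called higher. A single call in so short a list says little.

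Regulators of class I genes were called higher with LPS for 9 of 17 measured in the libraries labelled Sema6D-/- and 8 of 16 in WT, with none lower, beside 14.0% and 10.7% of all genes. Under the common total of all genes the calls were 7 higher and 3 lower of 17 in the libraries labelled Sema6D-/-, and 6 higher and 2 lower of 17 in WT. The share of all genes at that scaling is not given. Nlrc5, the class I transactivator, had 80.7 FPKM with LPS and 9.63 without in the libraries labelled Sema6D-/-, and 52.4 and 5.52 in WT, for log2 ratios of 2.94 and 3.03. Irf1 had 470.0 and 55.9 FPKM, and 334 and 25.2 in WT, for ratios of 3.05 and 3.68. Stat2 (1.85 and 2.71) and Nfkb1 (2.40 and 2.60) were called as well. Irf8 was called in the libraries labelled Sema6D-/- (1.31) and not in WT (0.76), a difference that was not tested. Without LPS, 3 of 17 regulators were called higher in the library labelled Sema6D-/-, among them Irf1 (1.12) and Stat2 (1.00), beside 2.51% of all genes. After LPS none of the 16 measured regulators was called, beside 3.09% of all genes called higher. The immunoproteasome and activator genes were called with LPS for 5 of 5 in both genotypes on the deposited scale. Under the common total of all genes this became 0 of 5 in the libraries labelled Sema6D-/- and 2 of 5 in WT, where Psmb9 and Psmb10 were left. These rescaled counts too have no share of all genes beside them. Psmb8 had 390.2 and 164 FPKM in the libraries labelled Sema6D-/-, and 257 and 111 in WT, for log2 LPS ratios of 1.24 and 1.21. Psmb9 had 234 and 70.1 FPKM, and 148 and 43.1 in WT, for ratios of 1.72 and 1.76.

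The genes most like the median profile of the 10 were sought among 7804 protein-coding genes at 5 FPKM or more in some library. Likeness was the distance between log2(FPKM + 1) values over the 4 libraries, each centred on its own mean. Among the 8 nearest were Ms4a6d (0.08), Sgk3 (0.10), Tmem219 (0.10), Dpy19l1 (0.11), Susd6 (0.12), Il10ra (0.13) and Psme2b (0.14). Among the 10 genes themselves Tapbp was nearest to the median profile (0.28), then H2-T23 (0.48) and H2-Q4 (0.54). H2-Q6 (1.73), H2-T24 (1.58) and Tap1 (1.47) were farthest. Ms4a6d had 670 FPKM with LPS and 248 without in the libraries labelled Sema6D-/-, and 407 and 170 in WT. With 4 libraries many genes can match a profile, and the distance says nothing of shared control.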

How the data were processed

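The deposited FPKM values, 1 per RefSeq transcript and library, were made by the authors. Cuffnorm 2.2.1, TopHat2 2.0.13, SAMtools 0.1.19 and Bowtie2 2.2.3 are named, with build mm9, per the submitters' processing notes. Their order and options, the annotation version and the treatment of fragments that fit several genes are not given in the sources used here. Library titles set the groups, and "non" was read as no LPS.

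Of 34487 transcripts 34163 were named by the GRCm38.p6 RefSeq table and 187 by GENCODE vM21, and 137 were left out. Transcripts were summed per symbol (Python 3.11.15, pandas 2.3.3). Ratios used an added 1 FPKM and a filter of 1 FPKM in at least 1 library compared, and the 2-fold size rule was checked on simulated data. No raw counts were used. Depth was read from steps of low values: 1 FPKM on 1 kb stood for 16.6 to 30.9 fragments, and 73.0 to 73.7% of low values lay within 0.1 of a whole fragment against 20% by chance.

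Members, lists and the naming rule were all chosen with earlier results of these data known. By that rule every member is named, with up to 5 genes per list by mean level, 10 genes set by name and the 8 nearest in pattern; 2 genes that the rule names are not reported here. Promoter sequences and coordinates are RefSeq GRCm38.p6 and transcripts GENCODE vM21; no coordinate was converted to or from mm9. Alternatives were the added value, the filter, the scaling, the leading transcript and sums over similar genes.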

Additional observations from a re-analysis of the deposited data

Results flagged for a closer look

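H2-Q6 was higher in the library labelled Sema6D-/- than in WT with LPS (log2 ratio 2.08) and lower without LPS (-1.05). B2m had ratios of the same signs and smaller size, 0.26 with LPS and -0.064 without. They were singled out because the genotype ratio pointed opposite ways with and without LPS. With 1 library per group the difference was not tested. The H2-Q6 value without LPS rested on 1 fragment in the library labelled Sema6D-/-, and 36.8% of its 50-base words occur in other genes.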

How the results depend on the processing

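All ratios were recomputed under 9 other settings, and the heavy chain sum under 5. Rescaling to a common total of all genes, or of protein-coding genes, brought the genes called higher with LPS to 3 and 3 in the libraries labelled Sema6D-/- (8 as reported) and to 3 and 3 in WT (6 as reported). The share of all genes called under these rescalings is not given. The medians became 0.44 and 0.42 in the libraries labelled Sema6D-/-, and 0.72 and 0.70 in WT. The log2 LPS ratio of the heavy chain sum in the libraries labelled Sema6D-/- became 0.032 and 0.013, and its difference between genotypes -0.17 and -0.16. Centring on the median or on the trimmed mean left 5 and 5 calls in the libraries labelled Sema6D-/-, since H2-T23, H2-T24 and B2m had ratios of 1.10, 1.11 and 1.03 as reported, and 5 and 5 in WT, where H2-T23 was then at 0.93. In the comparison of genotypes without LPS, an added 5 FPKM left 1 gene called higher and 0 called lower, and a filter of 5 FPKM also left 0 called lower, since H2-Q6 does not reach it. The median difference of the responses became 0.014 with the added 5 FPKM and 0.041 with the leading transcript only. Summing H2-Q6 to H2-Q9, an alternative chosen after seeing the data, turned the ratio without LPS to 1.37 and the difference of the responses to -0.13. No ratio called 2-fold for any of the 10 genes changed sign in the other settings. No paired analysis was possible because each group has 1 library. Depth limits H2-Q6, which had 1 fragment in the library labelled Sema6D-/- without LPS.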
